A study of Mus musculus with 12 samples.

Results

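Brush border digestive hydrolases are the enzymes that finish digestion on the surface of the small intestine. The 10 genes described here encode lactase (Lct), sucrase-isomaltase (Sis), maltase-glucoamylase (Mgam), trehalase (Treh), aminopeptidase N (Anpep), aminopeptidase A (Enpep), dipeptidyl peptidase 4 (Dpp4), both meprin subunits (Mep1a and Mep1b) and intestinal alkaline phosphatase (Alpi). They were chosen by name from the known enzymes of this membrane, and all 10 were found among the 14244 gene rows of the table. RNA came from gut epithelial cells of 8 weeks old male C57BL/6 littermates, 5 labelled wild type (WT) and 7 labelled Chd8L+/-, with 1 library per mouse. Chd8L+/- mice carry a heterozygous germline deletion in the long isoform of Chd8, a chromatin remodelling factor, so every cell of the animal carries it; WT littermates carry no deletion and neither group was treated. The part of the gut from which the cells were taken is not given in the sources used here. Each value is a normalized count, the reads counted on a gene divided by a scale factor of the library, and between 15691662 and 20761315 reads lay behind the 12 libraries.

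The brush border is the dense layer of microvilli on the absorptive enterocyte. Most of these enzymes sit in its membrane with their active sites in the gut lumen. There most of them cut sugars or peptides into units that neighbouring transporters carry into the cell. Enterocytes raise the genes as they leave the crypt and move up the villus, under transcription factors of the HNF4, CDX and GATA families, and several enzymes have their own profile along the length of the gut. Lactase is best known for its fall after weaning.

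In GRCm38, the carbohydrases lie at chr1:128284756-128328318 (Lct, minus strand), chr3:72888557-72967863 (Sis, minus strand), chr6:40628831-40769123 (Mgam, plus strand) and chr9:44673233-44686305 (Treh, plus strand). The peptidases lie at chr7:79821803-79861059 (Anpep, minus strand), chr3:129269175-129332720 (Enpep, minus strand), chr2:62330073-62412231 (Dpp4, minus strand) and chr17:43474324-43502812 (Mep1a, minus strand), and the place of Mep1b is given with its values. Alpi lies at chr1:87098002-87101606 on the minus strand, beside the related phosphatase gene Akp3 at chr1:87124973-87127912 on the plus strand. Exons of Treh overlap Phldb1 and exons of Dpp4 overlap the antisense gene Gm13561, both on the opposite strand, and whether the counting used strand is not given in the sources used here. Of the 75-base windows of their transcripts, 0.274% in Treh and 0.153% in Mep1b also occur in another gene, and 0% in the other 8.

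Promoters were taken from RefSeq (GRCm38.p6), from 250 bases before to 50 after the start, for 9 of the 10 genes; no promoter of Mep1b was used here. They were searched on both strands for letters that the factors named above, or the TATA-binding protein, are known to prefer. TTTATG, a CDX sequence, was found in the promoters of Lct, Sis and Mep1a, and in 12.1% of all 27025 promoters. Letters preferred by GATA factors, AGATAA, were found in those of Lct, Mgam and Dpp4 (11.4% of all promoters), and CAAAGT, a part of an HNF4 site, in those of Treh, Mep1a and Alpi (14.3%). TATAAA was found in those of Sis, Mgam, Enpep, Dpp4 and Alpi (14.2%). On the strand of the gene it began at -134 in Sis, -30 in Mgam and -227 in Dpp4. In Enpep (-52 and -1) and Alpi (-33) it was found on the opposite strand only. These are matches of letters in a short window, and binding was not measured. Lct and Sis are shown because both have the CDX letters shortly before the start, beginning at -31 and -43, on the opposite strand in Lct. Alpi and Akp3 are shown because these neighbouring genes for the same kind of enzyme varied over very different ranges. Capitals mark the matches, which overlap where TATAAA was found on both strands of Sis.
Lct, chr1:128328269-128328568, minus strand: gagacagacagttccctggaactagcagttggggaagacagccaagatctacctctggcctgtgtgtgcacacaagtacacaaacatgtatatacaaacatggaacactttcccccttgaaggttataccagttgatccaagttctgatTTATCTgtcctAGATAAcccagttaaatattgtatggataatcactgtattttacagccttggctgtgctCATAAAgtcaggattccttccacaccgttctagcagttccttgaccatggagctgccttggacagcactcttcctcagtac
Sis, chr3:72967814-72968113, minus strand: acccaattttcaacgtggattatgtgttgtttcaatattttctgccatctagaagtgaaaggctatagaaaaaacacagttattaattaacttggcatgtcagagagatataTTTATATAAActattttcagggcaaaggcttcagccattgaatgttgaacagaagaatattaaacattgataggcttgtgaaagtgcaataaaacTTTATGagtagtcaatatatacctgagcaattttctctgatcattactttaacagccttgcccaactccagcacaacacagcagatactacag
Alpi, chr1:87101557-87101856, minus strand: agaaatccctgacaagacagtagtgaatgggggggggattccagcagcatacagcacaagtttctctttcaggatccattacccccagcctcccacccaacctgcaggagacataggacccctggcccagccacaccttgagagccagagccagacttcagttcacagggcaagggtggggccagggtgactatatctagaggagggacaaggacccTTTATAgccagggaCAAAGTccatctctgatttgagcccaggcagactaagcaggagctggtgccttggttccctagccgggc
Akp3, chr1:87124704-87125003, plus strand: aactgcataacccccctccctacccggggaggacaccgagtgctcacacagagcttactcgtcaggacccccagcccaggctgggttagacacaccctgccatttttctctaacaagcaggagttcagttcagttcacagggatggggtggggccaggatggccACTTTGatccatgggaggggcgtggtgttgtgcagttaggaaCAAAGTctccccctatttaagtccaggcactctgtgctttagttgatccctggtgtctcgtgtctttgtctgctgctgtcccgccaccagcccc

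Before the genes themselves, 3 facts of the libraries bear on them. Chd8 was between 823 and 1050 normalized counts in WT and between 1084 and 1483 in Chd8L+/- libraries, without overlap (log2 fold change 0.44, limma adjusted p = 0.121; exact permutation test p = 0.00126, the smallest that these groups allow), but a count over the whole gene also holds exons outside the deletion and so does not check the genotype. On the first principal component of all genes tested, which held 39.7% of the variance, WT replicate 2 (41.0) lay among the Chd8L+/- libraries (0.26 to 42.7), whereas the remaining WT mice, 4 in number, had scores of -67.5 to -26.2. Results are therefore given with and without it. WT replicate 2 was singled out from the same values that were tested. Leaving out a WT library that lies among the Chd8L+/- libraries can by itself enlarge the differences between the genotypes. With it 3 genes were called, and without it 3533. Adjusted p-values from the fit without WT replicate 2 are therefore a description. Levels of 10 enterocyte markers, such as the fatty acid binding protein genes Fabp1 and Fabp2, were summed in each library. The sum ran from 328685 in WT replicate 2 to 776415 in WT, with a WT median of 682129. In Chd8L+/- libraries it ran from 309477 to 708873, with a median of 382427. None of these markers was at 0. In bulk RNA, fewer cells of a type and less RNA per cell cannot be told apart.

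The 10 hydrolase genes were among the abundant transcripts of these cells. Together they took between 1.25% and 1.98% of all normalized counts in WT libraries and between 0.938% and 2.48% in Chd8L+/- libraries. Per kilobase of exon, the scale on which genes can be compared, Anpep was the highest in WT at 26471 ± 5722 (SD, n = 5) normalized counts per kilobase. Aminopeptidase N, its product, takes neutral amino acids from the ends of peptides. Alpi followed at 11271 ± 3654, then Mep1b at 7712 ± 2490 and Sis at 7093 ± 1491 per kilobase. From Alpi to Sis, each step down was smaller than the larger SD of the neighbours. The next group of neighbours closer than their SD was Mgam (4447 ± 952), Treh (4162 ± 806) and Lct (3754 ± 815), and the last was Dpp4 (2748 ± 880) and Enpep (2607 ± 367). Mep1a was the lowest at 1447 ± 596 normalized counts per kilobase, so that the genes of both meprin subunits stood far apart. The order in Chd8L+/- libraries differed only in the place of Enpep, which stood after Mgam at 4221 ± 1886 (n = 7), and in Lct standing above Treh; none of the steps between Alpi and Treh exceeded the larger SD there.

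None of the 10 hydrolase genes differed between the genotypes past the threshold in limma, with Benjamini-Hochberg adjustment over the 12808 genes with a mean of at least 10, all 10 members among them. The threshold was an adjusted p of 0.05 or less, which 0.0234% of all genes passed. At an unadjusted p of 0.05 or less there were 0 of 10 members, beside 24.3% of all genes. Without WT replicate 2, 27.6% of all genes passed the adjusted threshold and again 0 of the 10. Members called also numbered 0 with the first letter of the library name as a block (3.52% of all genes called) in DESeq2 on recovered reads (6.44%) and in edgeR on the same reads (0.0388%). WT and Chd8L+/- values overlapped for each of the 10, whereas 0.515% of all genes had values that did not overlap. The fold changes on the log2(value + 1) scale were lower than 0 in Chd8L+/- for 8 members, with a median of -0.11 beside 0.014 over all genes tested, and -0.37 without WT replicate 2. This direction depended on the scaling and the tool. Below 0 were 3 members under quantile normalization, with a median of 0.14 beside 0.012 over all genes. There were 4 when centred on structure genes (0.078 beside 0.20) and 4 without Chd8L+/- replicate 6 (0.077 beside 0.026). There were 5 in edgeR (0.0090 beside 0.038) and 5 in DESeq2 (-0.0095 beside 0.024). With other pseudocounts or filters 8 stayed below 0, and 7 with the letter block. Without any other single library 6 to 9 did.

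**Figure D1:**
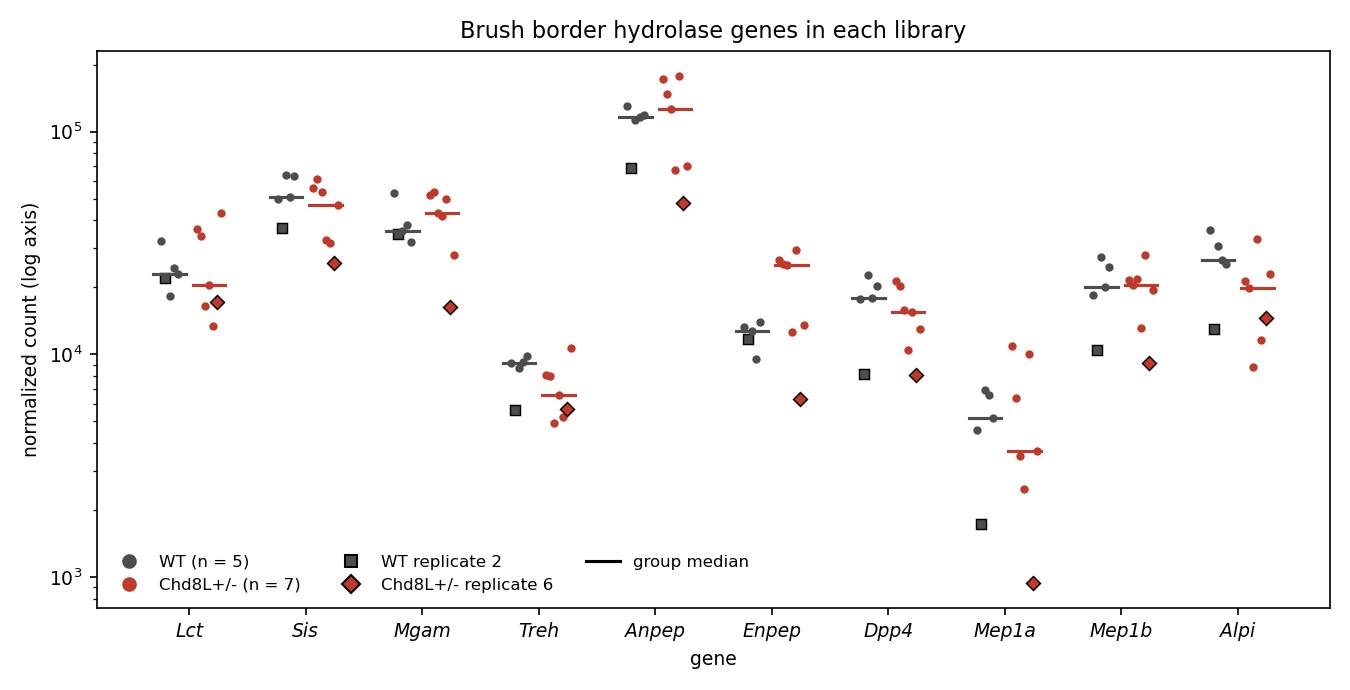
Normalized count (log axis) of each of the 10 genes in 5 WT (grey) and 7 Chd8L+/- (red) libraries, 1 point per mouse; lines are group medians, the square is WT replicate 2 and the diamond Chd8L+/- replicate 6. The genotypes overlap for every gene, the square is the lowest WT point for 7 genes and the diamond the lowest of all 12 for 7.

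**Figure D2:**
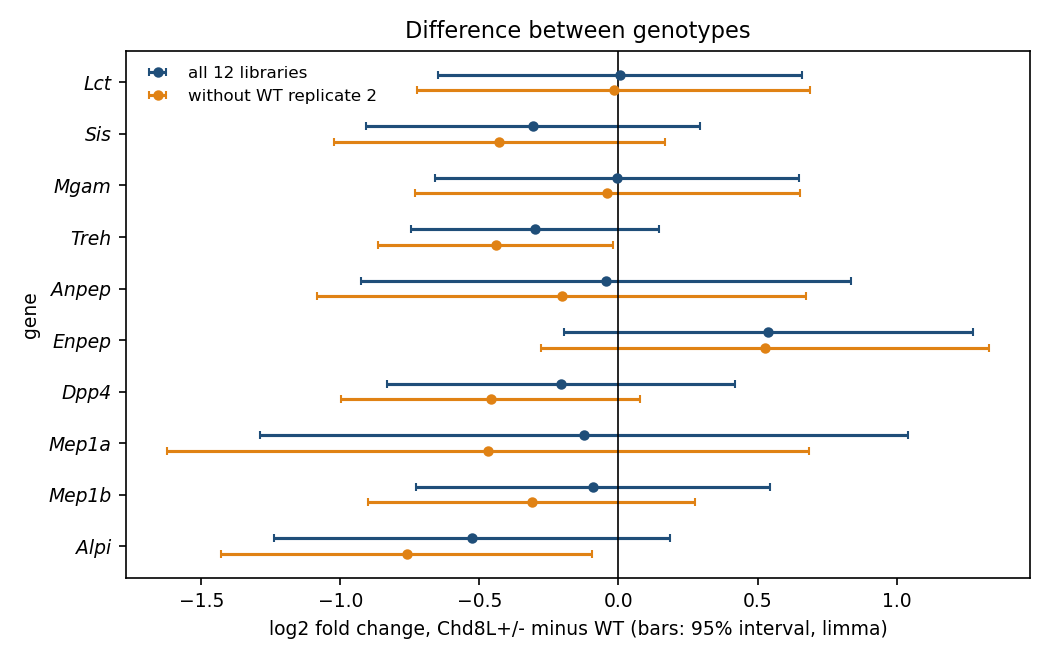
Log2 fold change of each gene, Chd8L+/- minus WT, with its 95% interval from limma, over all 12 libraries (blue) and without WT replicate 2 (orange). With all libraries every interval includes 0, and without WT replicate 2 those of Treh and Alpi do not, although neither gene passed the adjusted threshold.

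Among the carbohydrases, sucrase-isomaltase splits sucrose and the branch points of starch fragments. Sis was at 49677, 37087, 64156, 50720 and 63085 normalized counts in WT replicates 1 to 5, and its lowest, median and highest values in Chd8L+/- libraries were 25740, 46978 and 61456. Chd8L+/- values reached less far up and further down, with 3 below all WT libraries and 0 above them. The log2 fold change of Sis was -0.31 (95% interval -0.91 to 0.29, limma adjusted p = 0.516). Mgam, for the related enzyme that releases glucose from the ends of starch chains, had means of 38703 ± 8284 (SD, n = 5) in WT and 40578 ± 13676 (n = 7) in Chd8L+/- libraries, and a log2 fold change of -0.0050 (-0.66 to 0.65). Its lowest value was 16407 in Chd8L+/- replicate 6.

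Lactase splits milk sugar. In WT replicates 1 to 5, Lct was at 32423, 22122, 18231, 24443 and 23013 normalized counts, and in Chd8L+/- libraries its lowest, median and highest values were 13351, 20562 and 43283. Of the 7 Chd8L+/- libraries, 3 lay above all WT libraries and 3 below all of them, so that the spread was wider but the center was not apart: the log2 fold change was 0.0057 with a 95% interval of -0.65 to 0.66. Trehalase splits trehalose, a sugar of mushrooms and insects. Treh was at 9152, 5657, 8707, 9273 and 9826 normalized counts in WT, and 4943, 6577 and 10662 were its lowest, median and highest in Chd8L+/-. Its log2 fold change was -0.30 with all libraries (-0.74 to 0.15, limma adjusted p = 0.379) and -0.44 without WT replicate 2 (limma adjusted p = 0.109).

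Aminopeptidase A takes acidic residues from peptides, including angiotensin. Its gene Enpep was the member with the highest log2 fold change. In WT replicates 1 to 5 Enpep was at 13262, 11763, 12774, 9545 and 14006 normalized counts, a narrow range, and in Chd8L+/- libraries its lowest, median and highest values were 6308, 25178 and 29474. Of the 7 Chd8L+/- libraries 4 lay above all WT libraries, 2 lay within the WT range, and Chd8L+/- replicate 6 lay below it. The means were 12270 ± 1727 (SD, n = 5) and 19863 ± 8878 (n = 7). The log2 fold change of 0.54 had a 95% interval of -0.20 to 1.27 and did not pass (limma adjusted p = 0.337; exact permutation test p = 0.191). Without Chd8L+/- replicate 6 it was 0.79 (limma adjusted p = 0.133).

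Anpep ran parallel to Enpep over the Chd8L+/- libraries. It was at 130481, 68801, 112941, 116588 and 118472 normalized counts in WT and at 47597, 126581 and 177646 (lowest, median, highest) in Chd8L+/-. Replicates 5, 1 and 2 of Chd8L+/- were the 3 highest of all 12 libraries for both aminopeptidase genes, in the same order, and Chd8L+/- replicate 6 was the lowest for both. Anpep had a log2 fold change of -0.045 (95% interval -0.93 to 0.84). Dpp4, whose product cuts dipeptides from peptide ends and inactivates incretin hormones, had means of 17365 ± 5561 (n = 5) and 14958 ± 4883 (n = 7) and a log2 fold change of -0.21 (-0.83 to 0.42).

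Meprins are metalloproteases that cut larger peptides and proteins of the mucus. Mep1a, for the alpha subunit, varied the most of the 10 genes, 11.5-fold between the lowest and the highest library, against 2.16-fold to 4.67-fold for the others. Its values were 4591, 1736, 6912, 6549 and 5196 normalized counts in WT and 946, 3687 and 10871 (lowest, median, highest) in Chd8L+/- libraries. Both ends of that range were Chd8L+/- libraries, replicate 6 and replicate 1. The log2 fold change was -0.12 with a 95% interval of -1.29 to 1.04, the widest of the 10. Mep1b, for the beta subunit (chr18:21061923-21100199, plus strand), varied 3.06-fold, with means of 20245 ± 6535 (n = 5) and 19057 ± 6167 (n = 7) and a log2 fold change of -0.092 (-0.73 to 0.54).

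Alkaline phosphatase removes phosphate groups, among them those of bacterial lipopolysaccharide. Alpi was at 35998, 12965, 30684, 26497 and 25557 normalized counts in WT and at 8757, 19874 and 32904 (lowest, median, highest) in Chd8L+/- libraries. All WT libraries except replicate 2 exceeded 6 of the 7 Chd8L+/- libraries. The log2 fold change of Alpi was -0.53 (95% interval -1.24 to 0.19, limma adjusted p = 0.334) with all libraries and -0.76 without WT replicate 2, where its limma adjusted p of 0.0827 was the lowest that any member reached under any of the alternatives. Akp3 ranged over 2064-fold, from 18.7 normalized counts in Chd8L+/- replicate 3 to 38533 in replicate 4. WT replicate 1 was next at 14225, and the third highest library, WT replicate 2, was at 1537. Of the 7 Chd8L+/- libraries, 5 were below 300, as was WT replicate 4. Akp3 had a log2 fold change of -1.58 with an SE of 1.48 (limma adjusted p = 0.528). In Chd8L+/- replicate 3 Alpi was also at its lowest, and in replicate 4 it was at its highest for that genotype. Of the proximal small intestine markers summed below, Slc40a1 was also highest in Chd8L+/- replicate 4, and Cybrd1 and Slc46a1 in WT replicate 1. Gata4, Fabp1, Onecut2, Rbp2 and Adh6a were highest in other libraries. The part of these markers in the range of Akp3 was not tested.

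**Figure D3:**
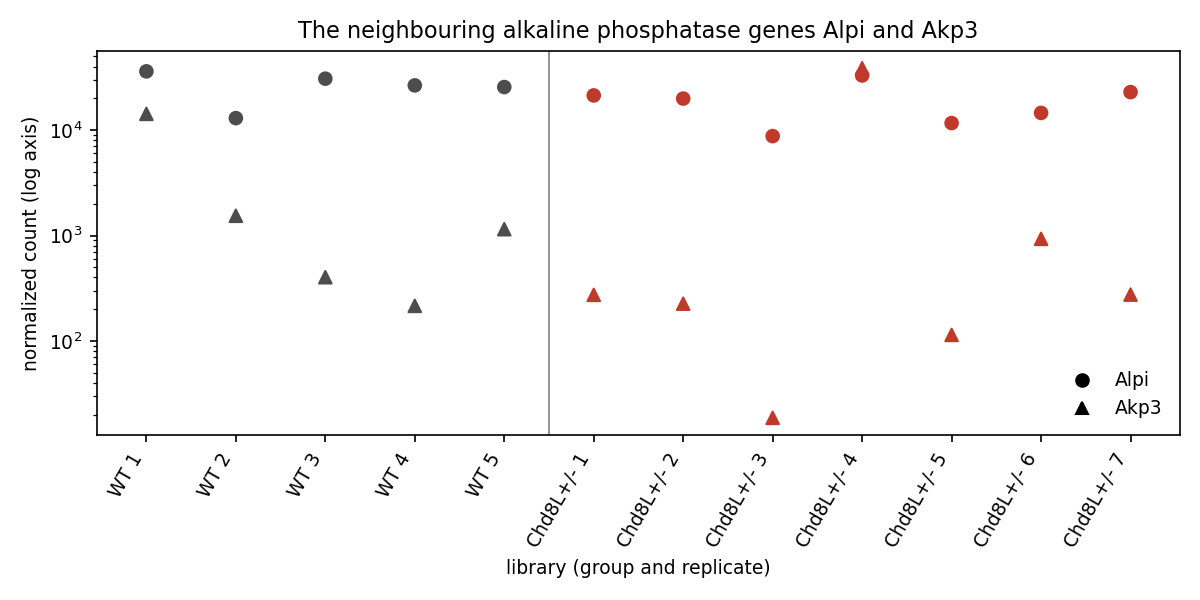
Normalized counts (log axis) of Alpi (circles) and Akp3 (triangles) in each of the 5 WT (grey) and 7 Chd8L+/- (red) libraries, without error bars since each point is 1 mouse. Akp3 runs from 18.7 to 38533 while Alpi stays between 8757 and 35998.

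In all, 3 ratios were compared within libraries, since a ratio does not depend on how a library was scaled. The log2 ratio of Anpep to Enpep was 3.30, 2.55, 3.14, 3.61 and 3.08 in WT replicates 1 to 5 and 2.33, 2.53 and 2.92 (lowest, median, highest) in Chd8L+/- libraries. The WT median exceeded the ratio in all 7 Chd8L+/- libraries, 4 of which were also below the lowest WT library. The mean was 3.14 ± 0.39 (SD, n = 5) in WT and 2.55 ± 0.21 (n = 7) in Chd8L+/- libraries, a difference of -0.58 (two-sided exact permutation p = 0.00884, adjusted over the 3 ratios 0.0265). On the linear scale, Anpep was 8.79 times Enpep in WT and 5.87 times in Chd8L+/- libraries as geometric means. A ratio by itself does not tell which of its genes moved. The log2 fold changes were -0.045 for Anpep and 0.54 for Enpep, and neither gene passed the test on its own. The difference was -0.73 without WT replicate 2 (exact permutation test, adjusted p = 0.00909). It no longer passed at an adjusted p of 0.0545 without WT replicate 4, where it was -0.46, or at 0.0519 without Chd8L+/- replicate 3, 4 or 7 (exact permutation tests).

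The other 2 ratios did not pass. The log2 ratio of Sis to Mgam was 0.45 ± 0.46 (n = 5) in WT and 0.15 ± 0.51 (n = 7) in Chd8L+/- libraries (difference -0.30, exact permutation test p = 0.309, adjusted 0.464). That of Mep1a to Mep1b was -2.09 ± 0.36 and -2.12 ± 0.78 (difference -0.032, exact permutation test p = 0.937). Summed levels of markers of the proximal small intestine, where 8 were measured, were 54968 to 124727 in WT (median 107191). In Chd8L+/- libraries they were 23265 to 88272 (median 51936). Most of that sum was Rbp2 and Fabp1 (WT means 56400 and 30482), which are also among the enterocyte markers, so it hardly reflects the other proximal markers. Summed levels of 7 markers of the distal small intestine were 9401 to 29728 (median 15108) in WT and 2805 to 42334 (median 18564) in Chd8L+/- libraries. No proximal or distal marker was at 0 in any library, and their part in the ratios was not tested.

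**Figure D4:**
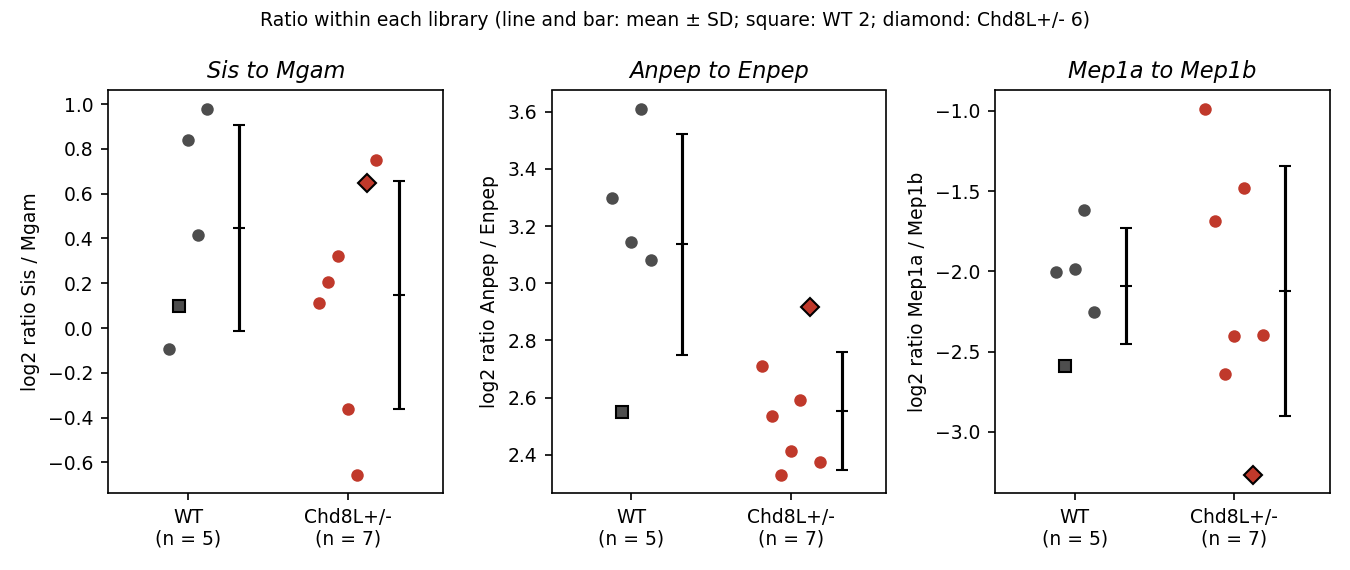
Log2 ratio of Sis to Mgam, Anpep to Enpep and Mep1a to Mep1b within each library, for 5 WT (grey) and 7 Chd8L+/- (red) mice, with mean ± SD beside the points; the square is WT replicate 2 and the diamond Chd8L+/- replicate 6. The Anpep to Enpep ratio is 3.08 or more in 4 WT libraries and at most 2.92 in all Chd8L+/- libraries, with WT replicate 2 at 2.55.

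In 2 libraries, WT replicate 2 and Chd8L+/- replicate 6, all 10 members were below their means. Of the 45 pairs of members, 42 had a positive Pearson correlation over the 12 libraries (median r = 0.524), and 15 passed an adjusted p of 0.05 over the 45 pairs in permutation tests with 100000 resamples, against 6 with Spearman's rho. Without these 2 libraries, an alternative chosen after seeing the data, 28 of the 45 pairs were positive and the median r was 0.188. Leaving out libraries in which all members are low can by itself lower such correlations, so this drop is only a description. The highest was between Anpep and Mep1a (r = 0.911, permutation adjusted p = 0.00285; Spearman's rho = 0.762, permutation adjusted p = 0.041). It was 0.911 within genotypes and 0.829 without Chd8L+/- replicates 6 and 4, the farthest from the median of Anpep, and 0.82 without both low libraries. Treh followed other partners, with r = 0.792 with Alpi (permutation adjusted p = 0.0113; rho = 0.699, permutation adjusted p = 0.0709), r = 0.61 without the 2 libraries farthest from the median of Treh. Between Alpi and Enpep r was -0.331 (permutation p = 0.289; rho = -0.336, permutation p = 0.285), or -0.76 without both low libraries, and between Lct and Mep1b 0.0268 (permutation p = 0.934; rho = -0.217, permutation p = 0.499). These pairs were singled out after their values were seen, and they share the scaling and composition of 12 libraries.

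Chd8L+/- replicate 6 was the lowest of all 12 for 7 of the 10 genes, and WT replicate 2 was the lowest WT library for 7. Among the lowest 3 of all libraries stood replicate 6 for 8 members, WT replicate 2 for 7, and replicates 4, 5 and 3 of Chd8L+/- for 5, 4 and 3. Replicate 6 was also the lowest library for 7 of 7 markers of the distal small intestine, with a summed level of 2805 beside 9401 or more in WT, and for 6 of 10 enterocyte markers. Fabp6, which carries bile acids in the cell, was at 42.8 normalized counts in it beside 2376 or more in WT. Of the 8 proximal small intestine markers, 4 were lowest in Chd8L+/- replicate 5, 3 in replicate 3 and 1 in replicate 1. In WT replicate 2, the summed level of 12 proliferation genes, 14983, was the highest in WT (3269 to 14983; 8376 to 15633 in Chd8L+/- libraries), none of those genes being at 0, and the summed level of the enterocyte markers was the lowest in WT. Of the markers of other cells and of proliferation, none passed with all 12 libraries. Without WT replicate 2 there passed 9 tuft, 11 proliferation, 3 crypt stem cell, 2 myeloid and 3 stromal genes (27.6% of all genes called). Also passing in that fit were 2 goblet, 2 Paneth, 2 enteroendocrine and 1 lymphocyte gene, and 2 of the enterocyte markers. With all libraries, log2 fold changes were below 0 for 10 of 10 tuft cell markers (median -1.85). They were below 0 for 9 of 10 enterocyte markers (median -0.37, beside -0.11 for the hydrolases, a difference that was not tested). Above 0 were 12 of 12 proliferation genes (median 1.01), 8 of 8 crypt stem cell (0.49), 7 of 7 myeloid (0.63) and 7 of 7 stromal markers (1.76). For goblet markers 6 of 7 were below 0 (median -0.12), and for lymphocyte markers 7 of 8 (-0.20). For Paneth markers 4 of 6 were below 0 (-0.24), and for enteroendocrine markers 4 of 8 (-0.042). Summed stromal markers ran from 56.0 to 421 in WT and from 83.8 to 2022 in Chd8L+/- libraries, with Col1a2, Col3a1 and Pdgfra at 0 in at least 1 library. Summed tuft markers ran from 2917 (WT replicate 2) to 27568 in WT and from 1622 to 11859 in Chd8L+/- libraries, with Il25 at 0 in at least 1. The summed myeloid markers, none at 0, ran from 1192 to 3171 and from 1754 to 3865. The part of these in the levels of the hydrolase genes was not tested. The genes whose log2 values over the 12 libraries were most like the mean of the 10 members, among 12798 others, were Clca4b (r = 0.983), Pdlim2 (0.981), Cast (0.973), Slc3a1 (0.961) and Slc6a19 (0.957), given as a description without a test. Slc3a1 and Slc6a19 encode parts of amino acid transport in the same membrane, and Cast the calpain inhibitor calpastatin. Chd8L+/- replicate 6 was the lowest library for all 5.

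**Figure D5:**
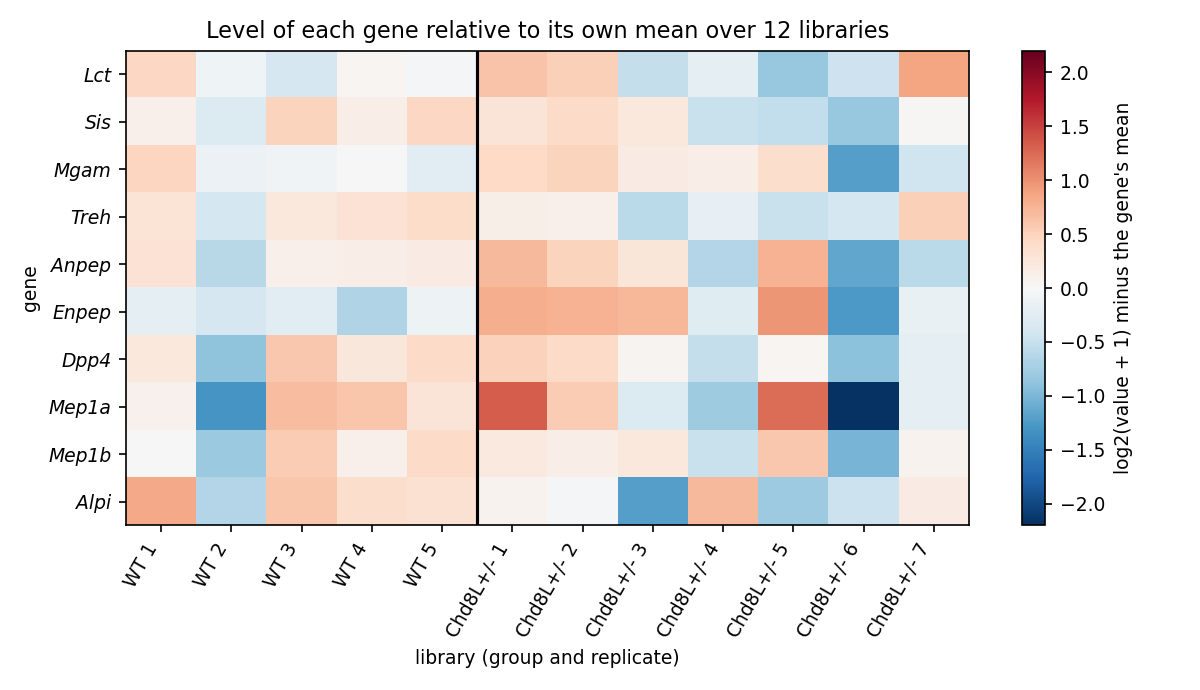
Log2(value + 1) of each of the 10 genes minus its own mean over 12 libraries, with WT libraries left and Chd8L+/- libraries right of the black line; red is above and blue below the gene's mean, with no averaging over mice. Chd8L+/- replicate 6 is below the mean for all 10 genes and WT replicate 2 likewise for all 10, and no color divides the genotypes.

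Other genes of the same surface were read from lists, none of whose members passed the adjusted threshold with all 12 libraries (0.0234% of all genes called). Of 14 other brush border enzyme genes, 11 had a log2 fold change below 0, with a median of -0.42; without WT replicate 2, 3 of them fell, beside 13.6% of all genes that were called lower in that fit. Ggt1, which breaks down glutathione, had -0.40 and -0.58 (limma adjusted p = 0.0313 without WT replicate 2). Enpp7, an alkaline sphingomyelinase, and Naaladl1, a peptidase, had 0.46 and 0.12, and neither passed.

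Of 15 genes that build the microvillus, 12 had a log2 fold change below 0, with a median of -0.15. Without WT replicate 2, 4 fell (13.6% of all genes called lower), including Espn, which bundles actin (-1.11, limma adjusted p = 0.00266; -0.77 with all libraries), and Ush1c, which links microvilli at their tips (-0.58, limma adjusted p = 0.0126; -0.43 with all libraries). Baiap2l1 and Cobl, both of which shape actin, had 0.39 and 0.059 with all libraries, and neither passed with or without it.

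The sugars and amino acids that the enzymes release are taken up by transporters in the same membrane. Of 10 such genes, 8 had a log2 fold change below 0, with a median of -0.34 beside -0.11 for the hydrolases, a difference that was not tested, and 2 fell without WT replicate 2 (13.6% of all genes called lower). Slc5a1, which carries glucose and galactose into the cell with sodium, had means of 92523 ± 30721 (SD, n = 5) and 47653 ± 13380 (n = 7) normalized counts and a log2 fold change of -0.91 (limma adjusted p = 0.129), and without WT replicate 2 it fell by 1.18 (limma adjusted p = 0.00746). Slc2a5, the fructose carrier, had -1.06 (limma adjusted p = 0.121), and without WT replicate 2 it fell by 1.34 (limma adjusted p = 0.00508). For both, 7 of 7 Chd8L+/- libraries were under the median of WT. Slc6a20a, a proline transporter, and Slc1a1, a glutamate transporter, had 0.29 and 0.27 and did not pass.

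Of 12 genes for transcription factors known to act on brush border enzyme genes, 9 had a log2 fold change below 0, with a median of -0.10, and none passed with or without WT replicate 2. Elf3, an epithelial factor, had -0.47 (limma adjusted p = 0.145) and Cdx1 -0.15.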

How the data were processed

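Poly(A) RNA of gut epithelial cells from 12 mice was sequenced as 75-base single-end reads. Mapping to mm10 was done by the authors with Tophat2, followed by DESeq2; the program and annotation behind the counts, the use of strand and any filter are not given in the sources used here. The deposited values are a signal, the reads counted per gene divided by a size factor of the library. All values (100%) came out as whole reads within 0.01 when divided by what 1 read is worth in the library; in WT replicates 3 and 4 that worth was too near 1 for a general check of such steps. Recovered totals were 15691662 to 20761315 reads (median 18646435), so that counting error is small beside the spread between mice for genes at these levels. Of 14244 rows, 21 carry names turned into dates. Columns of other samples numbered 0.

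Since the table holds normalized values and not counts, the main test was limma 3.58.1 (R 4.3.3; eBayes with a trend in the prior variance), fitted to log2(value + 1) of the 12808 genes with a mean of at least 10, with genotype alone and Benjamini-Hochberg adjustment. Fold changes on this scale understate those of low genes. Exact permutation tests, two-sided, were used for single genes and for the 3 ratios; the smallest p that 5 against 7 libraries allow is 0.00126. The test was checked on simulated reads with the same dispersion for every gene and no variation shared by genes of a library. That check cannot show how the test behaves where libraries differ as these do. Alternatives were other pseudocounts (0.5, 5), no filter or at least 10 in every library, quantile normalization, centring on brush border structure genes, a replicate or library letter block, leaving out each library, and, on recovered reads, DESeq2 1.42.0 and edgeR 4.0.16. The members and lists were chosen with earlier results of these data known. Named besides the members were Chd8, Akp3, from each of 4 brush border lists the 2 genes with the smallest p in each direction, and the 5 genes most correlated with the mean of the members; Some genes that this rule names are not reported here. The markers Fabp1, Fabp2, Fabp6, Rbp2, Il25, Col1a2, Col3a1 and Pdgfra were named after their values were seen. The same holds for Gata4, Cybrd1, Slc40a1, Onecut2, Slc46a1 and Adh6a. Folh1, of the enzyme list, was not analysed here. Each library is a separate mouse. The 45 correlations between members were added after the data were seen.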

Additional observations from a re-analysis of the deposited data

Results flagged for a closer look

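In 3 of 28 groups of values tested for a sample far from the others (the 10 members, Akp3 and the 3 ratios, each in both genotypes), WT replicate 2 stood apart as the lowest WT library; chance gives about 1.4 in 28. On the log2(value + 1) scale it was at 12.47 for Treh, with the nearest WT library at 13.09. For Anpep it was at 16.07, with the nearest at 16.79. For Dpp4 it was at 12.99, with the nearest at 14.11. These are genes for a sugar-splitting enzyme and 2 peptidases, and the same library held the highest summed level of proliferation genes in WT.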

How the results depend on the processing

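Of 220 values for the 10 members under 22 alternatives each, 179 kept their direction, 41 in 6 members reversed, and 0 passed the threshold; the lowest adjusted p was 0.0827. The log2 fold change of Lct was -0.076 with a replicate block and -0.26 with the library letter block. Under quantile normalization it was 0.31 for Mgam, 0.38 for Anpep, 0.095 for Dpp4, 0.089 for Mep1a and 0.19 for Mep1b. Centred on brush border structure genes, which moved the median of all genes to 0.20, it was 0.18 for Mgam, 0.14 for Anpep, 0.062 for Mep1a, 0.094 for Mep1b and 0.033 for Cdx1. With the replicate block it was 0.33 for Mgam, 0.29 for Anpep, 0.34 for Mep1a and 0.083 for Mep1b; with the letter block 0.13 for Mgam and 0.12 for Anpep. In edgeR it was 0.086, 0.10 and 0.14 for Mgam, Anpep and Mep1a, and in DESeq2 0.068, 0.080 and 0.11. Leaving out each library in turn gave -0.14 to 0.14 for Lct, -0.087 to 0.20 for Mgam, -0.20 to 0.14 for Anpep, -0.47 to 0.23 for Mep1a, -0.31 to 0.072 for Mep1b, -0.044 to 0.22 for Cobl and -0.16 to 0.43 for Naaladl1. It gave -0.73 to -0.46 for the log2 ratio of Anpep to Enpep, -0.22 to 0.16 for that of Mep1a to Mep1b and -0.37 to 0.077 for the median of the members. Genes called numbered 3 in the main test, 0 when centred on structure genes and with the replicate block, 451 with the letter block, 5 in edgeR, 811 in DESeq2 and 0 to 3533 without single libraries, 3533 being without WT replicate 2. In DESeq2, Espn, Slc2a5 and Slc5a1 passed (adjusted p = 0.0262, 0.0214 and 0.0121). The replicate numbers did not pair the libraries: correlations of same-numbered libraries were 0.189, -0.344, -0.129, -0.171 and -0.228, and 1 of 5 WT libraries was best matched by its own number. With the replicate block over 5 pairs, the ratio of Anpep to Enpep differed by -0.62 (exact sign-flip p = 0.0625, the smallest possible; adjusted 0.188) and that of Mep1a to Mep1b by 0.25 (p = 0.5). The cause of these changes was not tested. With the block, 5 members were below 0 (median of the members 0.032) and Enpep had an unadjusted p of 0.0028 (adjusted 0.211).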
